A study of Homo sapiens with 6 samples.

Results

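The 10 genes described here are grouped as nuclear effectors and feedback regulators of Notch signalling: HES1, HES2, HES4, HES6, HEY1, HEY2, NRARP, DTX1, CDCA7 and BHLHE40. They were taken by symbol from the deposited table of coding genes, where 10 of 10 were found among 15376 rows. The table holds messenger RNA of PC9ER cells, an EGFR-driven, gefitinib-resistant line of human non-small cell lung cancer, and the study asked how these cells respond to inhibition of the EGFR kinase and of Notch. Its labelled columns are 3 control libraries, from cells given the vehicle DMSO, and 3 libraries from cells exposed to 1 µM gefitinib over the closing 6 h. A single protocol covers all samples: culture in 10% fetal calf serum, 72 h of vehicle in place of the Notch inhibitor DBZ, and overnight serum withdrawal. Whether control cells were also without serum is not stated, so gefitinib and a difference in serum cannot be told apart. No label states whether replicates are separate cultures. The p-values thus set the group difference against the spread between libraries, which may be technical. DBZ-treated cells were not analysed here.

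Notch receptors are cleaved when a ligand on a neighbouring cell binds them, and gamma-secretase releases the intracellular domain into the nucleus. There it joins the DNA-binding protein RBPJ and a Mastermind coactivator and switches on target genes, among them some genes of the HES and HEY families. Both families encode basic helix-loop-helix (bHLH) repressors that bind E box or N box sequences, and HES proteins recruit corepressors of the TLE family. In airway epithelium, HES1 is best known for restraining neuroendocrine differentiation.

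Promoter sequences show which members carry the RBPJ recognition sequence near the start site. RefSeq's table (GRCh38.p14) held a promoter, from 250 bases before to 50 bases after the start site, for 8 of the 10 members; HEY1 and DTX1 had no entry. The search was for GTGGGAA (an RBPJ site) and its core TGGGAA on both strands, every site containing a core. HES1, HES4 and HEY2 are shown because they hold the site, and HES6 because it changed most and holds none in its window. Only the first promoter listed for each gene was searched. The windows of HES6 and HEY2 lie inside their gene models, and start sites elsewhere in these genes were not searched. The sequences run 5′ to 3′ on the gene's strand, and capitals mark RBPJ sites and cores, or their reverse complement.
HES1 (chr3:194135898-194136197, plus strand): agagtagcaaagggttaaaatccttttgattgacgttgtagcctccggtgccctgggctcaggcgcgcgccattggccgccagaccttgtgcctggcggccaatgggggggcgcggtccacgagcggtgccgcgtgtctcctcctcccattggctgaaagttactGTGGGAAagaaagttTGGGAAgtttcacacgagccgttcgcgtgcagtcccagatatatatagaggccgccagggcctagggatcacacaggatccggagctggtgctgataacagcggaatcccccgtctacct
HES4 (chr1:1000048-1000347, minus strand): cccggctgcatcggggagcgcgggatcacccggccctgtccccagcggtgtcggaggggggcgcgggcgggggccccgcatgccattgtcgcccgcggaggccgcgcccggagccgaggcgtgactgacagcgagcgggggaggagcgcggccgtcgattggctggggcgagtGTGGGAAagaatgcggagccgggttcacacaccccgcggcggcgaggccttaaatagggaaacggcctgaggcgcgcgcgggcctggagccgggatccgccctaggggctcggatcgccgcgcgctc
HEY2 (chr6:125749382-125749681, plus strand): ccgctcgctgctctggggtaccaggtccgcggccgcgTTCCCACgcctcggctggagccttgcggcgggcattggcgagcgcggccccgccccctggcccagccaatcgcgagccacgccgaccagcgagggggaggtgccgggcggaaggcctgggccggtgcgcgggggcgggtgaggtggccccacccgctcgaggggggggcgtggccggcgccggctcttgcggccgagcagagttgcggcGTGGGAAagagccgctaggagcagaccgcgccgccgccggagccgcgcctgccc
HES6 (chr2:238239989-238240288, minus strand): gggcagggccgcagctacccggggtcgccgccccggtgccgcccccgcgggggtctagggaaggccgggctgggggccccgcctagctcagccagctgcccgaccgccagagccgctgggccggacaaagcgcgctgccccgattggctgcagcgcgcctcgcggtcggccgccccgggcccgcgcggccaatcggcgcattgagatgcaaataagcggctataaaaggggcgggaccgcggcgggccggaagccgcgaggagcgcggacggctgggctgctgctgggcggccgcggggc

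The HES1 promoter held an RBPJ site starting 85 bases before the start site and a further core at 70 bases before it. HES4 held a site at 77 bases before the start, and HEY2 held a site at 4 bases before it and another, on the opposite strand, at 213 bases before it. The forward sites of these 3 genes continue alike, as GTGGGAAAGA. That longer run, looked for after the sites had been seen, occurs in 22 of 11608 promoters of genes in the table (0.19%). The site itself occurs in 5.75% of these promoters and the core in 22.1%. HES2, NRARP, CDCA7 and BHLHE40, like HES6, had no core in the window. The N box CACNAG, found in 35.3% of promoters, occurred 4 times in HES1 and once each in HES2, NRARP and CDCA7. The E box CACGTG, found in 9.48%, occurred in BHLHE40 only among the 8. These matches are letters in a window, and binding was not measured.

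**Figure D1:**
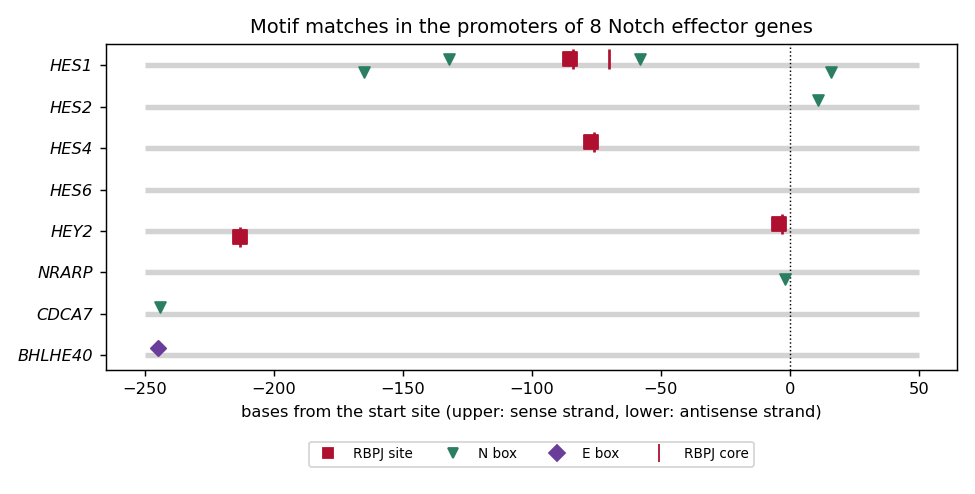
Positions of motif matches in the promoters of 8 members, in bases from the start site, with matches on the sense strand above each line and on the antisense strand below. Squares mark RBPJ sites, short vertical bars RBPJ cores, triangles N boxes and the diamond the E box: sites lie in HES1, HES4 and HEY2, and the window of HES6 holds none of these motifs.

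With gefitinib the effector genes moved in both directions. HES6 rose 5.24-fold, HEY2 3.06-fold and NRARP 2.23-fold, and HES1 was 1.27-fold higher. HEY1 fell to 0.325 of its control level and BHLHE40 to 0.511. HES2, HES4, CDCA7 and DTX1 did not pass the test. The test was limma on log2(normalized read count + 1) over 15229 genes, with Benjamini-Hochberg adjustment and a threshold of 0.05. At this threshold 28.3% of all tested genes were higher and 22.8% lower, or 51.1% in either direction, so 4 members higher and 2 lower of 10 is close to the background in number. For 8 of 10 members no control library overlapped the range of the gefitinib libraries, against 58.0% of all tested genes. The median log2 difference was 0.14 over the members and 0.10 over all tested genes, and the median size regardless of sign was 0.93 against 0.53. On reads recovered from the values, edgeR called 3 members higher and 3 lower of 9 tested, against 30.5% and 30.8% of 12167 genes (61.3% in either direction): HES1 lost its call and HES2 gained one. In these bulk samples, fewer cells with a transcript and less of it per cell cannot be told apart.

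**Figure D2:**
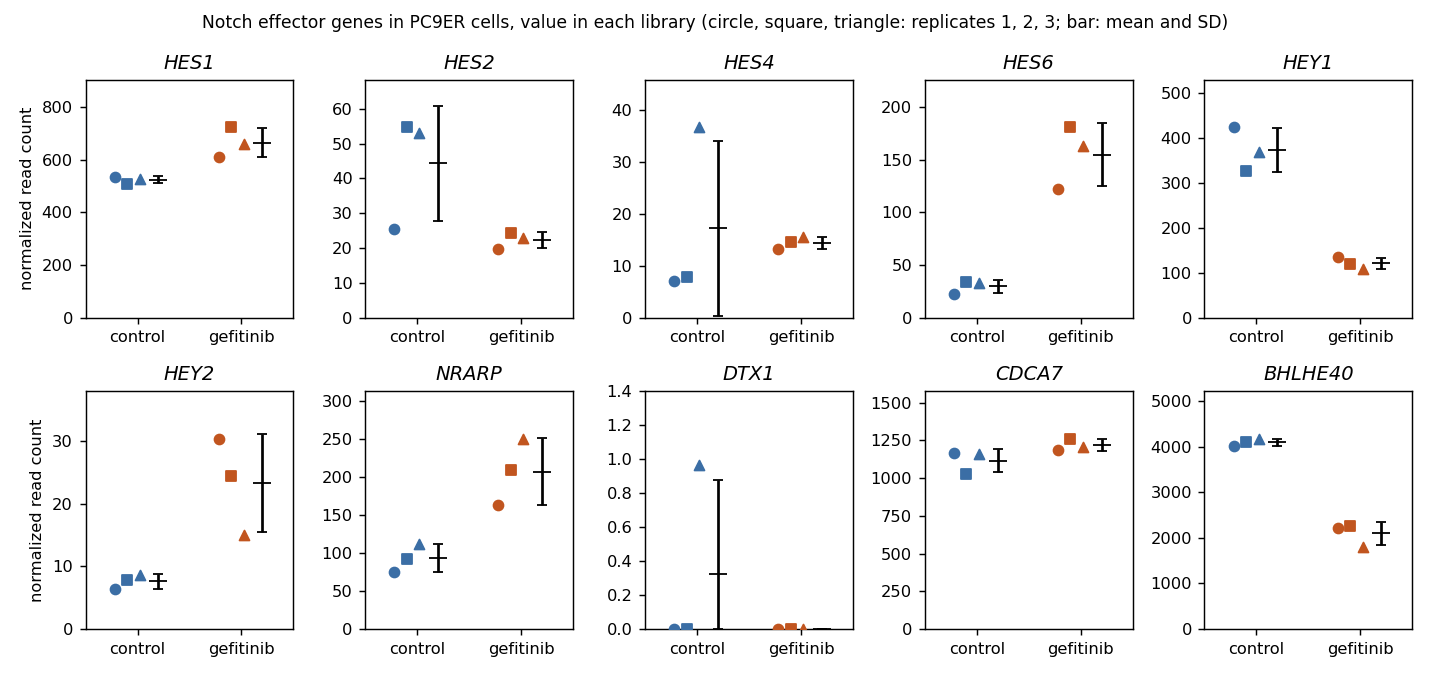
Normalized read count of each member in the 3 control and 3 gefitinib libraries, each panel on its own linear axis from 0, with the mean and SD of 3 libraries as a bar, cut off at 0 for DTX1. HES6, HEY2 and NRARP lie higher in every gefitinib library, HEY1 and BHLHE40 lie lower, and control replicate 3 stands apart for HES4.

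Among the HES genes, HES1 (ENSG00000114315, chromosome 3, 194136145 to 194138732, plus strand, GRCh38), the repressor most often read as Notch output, was the most abundant. Its normalized read counts were 535, 509 and 528 in control replicates 1, 2 and 3 and 612, 724 and 660.5 in gefitinib replicates 1, 2 and 3. Every gefitinib library was above every control library, by a small margin. The log2 difference was 0.34 ± 0.11 (SE; 95% interval 0.10 to 0.58; limma adjusted p = 0.0224, n = 3 per group). The call did not hold under 7 of 15 alternatives, with adjusted p from 0.0131 to 0.122 over all of them. The adjusted p was 0.0645 with TMM factors and 0.0579 with edgeR. With control replicate 2 left out it was 0.0874, and 0.122 or 0.0626 with gefitinib replicate 2 or 3 left out.

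HES6 (ENSG00000144485, chromosome 2, 238238267 to 238240662, minus strand) encodes a family member that antagonises HES1 and favours neuronal differentiation. Its normalized read counts were 22.6, 33.5 and 32.8 in control and 122, 181 and 163 in gefitinib libraries. The lowest gefitinib library was far above the highest control library, on 92 to 348 reads per library against 30 to 34. HES6 rose by a log2 difference of 2.35 ± 0.26 (SE; limma adjusted p = 7.52e-05), the largest change among the members. The change kept its direction and its call under all 15 alternatives, between 2.17 and 2.52.

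Neuroendocrine marker genes were read beside HES6. The secretory granule gene CHGA had 1 read in the control and 1 in the gefitinib libraries together. The synaptic vesicle gene SYP had normalized read counts of 41.6 ± 3.45 and 29.4 ± 10.3 (SD, n = 3; limma adjusted p = 0.177), so its gefitinib mean lay no higher.

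HES2 (ENSG00000069812, chromosome 1, 6412418 to 6424670, minus strand), a lowly expressed relative of HES1, had normalized read counts of 25.4, 54.7 and 53.1 in control and 19.8, 24.4 and 23.0 in gefitinib libraries. Control replicate 1 lay close to the gefitinib libraries and the other two control libraries lay well above them. The log2 difference of -0.88 ± 0.35 (SE) did not pass (limma adjusted p = 0.0588). Without control replicate 1 it was -1.23 (limma adjusted p = 0.00464), and 8 of 15 alternatives, edgeR among them (adjusted p = 0.0212), called HES2 lower, over a range of adjusted p from 0.00464 to 0.193.

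HES4 (ENSG00000188290, chromosome 1, 998962 to 1000172, minus strand), a close relative of HES1 whose promoter window also holds the run GTGGGAAAGA, had normalized read counts of 7.05, 7.81 and 36.7 in control libraries. Its gefitinib libraries had 13.2, 14.5 and 15.5. Control replicate 3, with 38 reads, lay above all gefitinib libraries, and the other two control libraries, with 10 and 7 reads, lay below them. The log2 difference was 0.15 ± 0.56 (SE; limma adjusted p = 0.844), with a 95% interval from -1.12 to 1.41. Its sign turned with the library left out: -0.25 without control replicate 1, -0.18 without control replicate 2 and 0.87 without control replicate 3, none past the threshold. No direction can be read for HES4.

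The HEY genes, close paralogs that encode bHLH repressors of the same pathway, moved apart. HEY1 (ENSG00000164683, chromosome 8, 79764010 to 79767863, minus strand) had normalized read counts of 423, 326 and 367 in control and 134, 119 and 109 in gefitinib libraries. All gefitinib libraries were below all control libraries. HEY1 had a log2 difference of -1.61 ± 0.16 (SE; limma adjusted p = 4.42e-05), the largest fall among the members. The call held under all 15 alternatives, between -1.71 and -1.52.

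HEY2 (ENSG00000135547, chromosome 6, 125747664 to 125761269, plus strand) was much scarcer. Its normalized read counts were 6.35, 7.81 and 8.69 in control and 30.4, 24.4 and 15 in gefitinib libraries. The groups did not overlap, on 7 to 9 reads per control library and 23 to 32 per gefitinib library. HEY2 rose by a log2 difference of 1.45 ± 0.36 (SE; limma adjusted p = 0.00764), and the call held under all 14 alternatives that tested it, with differences from 1.13 to 1.72.

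HEY1, HEY2 and the ligand gene DLL4 are also known from endothelial cells, so endothelial markers were read beside them. Of 5 fixed markers 4 were in the table, with summed normalized read counts from 1180.3 to 1360.1 in control and from 149 to 177 in gefitinib libraries. Nearly all of this was PECAM1, an adhesion molecule gene, at 1216 ± 80.4 and 122 ± 10.5 (SD, n = 3). The endothelial cadherin gene CDH5 had 50.5 ± 9.09 and 33.5 ± 5.09, VWF had 8.64 ± 3.72 and 5.18 ± 3.32, and the receptor gene TEK had 0 and 4 reads per group. The part of these genes in the HEY1 and HEY2 results was not tested.

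**Figure D3:**
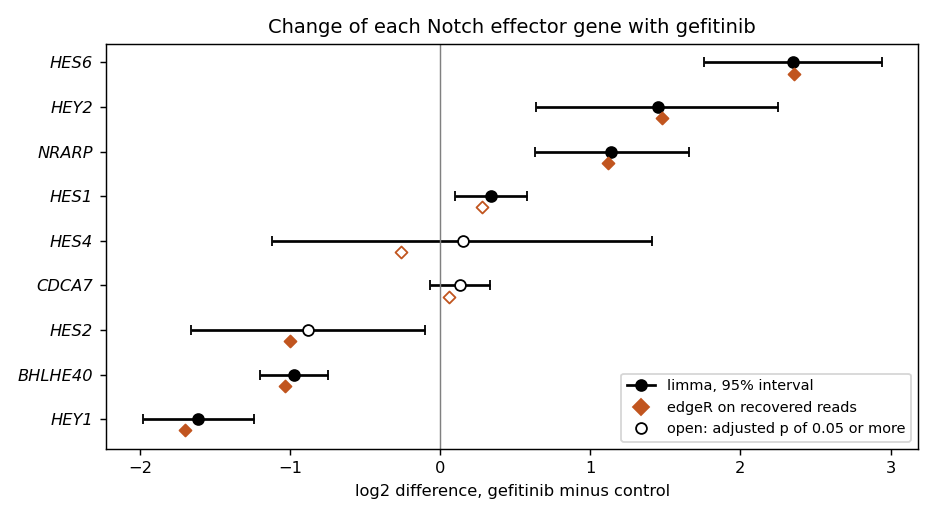
Log2 difference, gefitinib minus control, of 9 members (DTX1 is left out for want of reads), with the limma 95% interval as a line and the edgeR value as a diamond, open symbols marking adjusted p of 0.05 or more. HES6, at 2.35, and HEY1, at -1.61, lie at the ends, and limma and edgeR differ in their calls for HES1 and HES2.

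Of the feedback regulators, NRARP (ENSG00000198435, chromosome 9, 137300482 to 137302251, minus strand), a gene of 1 exon for an ankyrin repeat protein that dampens the Notch nuclear complex, was higher. Its normalized read counts were 75.5, 91.5 and 112 in control and 163, 209 and 250.3 in gefitinib libraries. The lowest gefitinib library exceeded the highest control library. NRARP rose by a log2 difference of 1.14 ± 0.23 (SE; limma adjusted p = 0.00235), and the call held under all 15 alternatives, from 1.00 to 1.31.

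DTX1 (ENSG00000135144, chromosome 12, 113056709 to 113098028, plus strand), which encodes a Deltex ubiquitin ligase and is a Notch target in lymphocytes, was barely detected. It had 1 read, in control replicate 3, among 60586751 control reads in coding genes, and 0 among 72269188 gefitinib reads, which allows up to 3 reads, or 0.0415 CPM (reads scaled to library size), for counting error only. No fold is given. Its relative DTX4, named after its value was seen, was abundant and fell from 3339 ± 194 to 1810.2 ± 183 (SD, n = 3; limma adjusted p = 6.41e-05).

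The remaining members take other inputs beside Notch. BHLHE40 (ENSG00000134107, chromosome 3, 4979116 to 4985323, plus strand), a bHLH repressor gene also driven by the circadian clock and hypoxia, had normalized read counts of 4021, 4099 and 4179.7 in control libraries. Its gefitinib libraries had 2227, 2266 and 1798. All gefitinib libraries were below all control libraries. BHLHE40 had a log2 difference of -0.97 ± 0.10 (SE; limma adjusted p = 4.5e-05), and the call held under all 15 alternatives. Its merged exons share 4 bases with an antisense gene, and those of the other members share none with another annotated gene.

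CDCA7 (ENSG00000144354, chromosome 2, 173354820 to 173368997, plus strand), which encodes a chromatin protein and responds to MYC and Notch in blood cells, had normalized read counts of 1166, 1026 and 1159 in control libraries. Its gefitinib libraries had 1189, 1262 and 1209. The groups did not overlap but almost touched. The log2 difference was 0.13 ± 0.09 (SE; limma adjusted p = 0.261) and its 95% interval, -0.07 to 0.33, leaves out a change of more than 0.33 upward. MYC itself fell from 3569 ± 317 to 687 ± 89.9 (SD, n = 3; limma adjusted p = 1.11e-06).

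Scatter between replicates was near counting error for some members and far above it for others. The coefficient of variation of HES1 in control libraries was 2.63%, with 4.20% expected from its read numbers alone, and in gefitinib libraries it was 8.40% with 3.61% expected. That of HES4 in control libraries was 98.3% with 28.5% expected. HES2 in control libraries had 37.1% with 14.8% expected, and HEY2 in gefitinib libraries 33.4% with 19.3% expected.

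Per exon length, levels were compared as normalized reads per kb of the merged exons of all GENCODE transcripts, which for HES1 were 2.062 kb and for HES2 5.407 kb. In control libraries the order was BHLHE40 (1069 ± 20.6 per kb, SD, n = 3), CDCA7 (284 ± 20), HES1 (254 ± 6.68), HEY1 (115 ± 15) and NRARP (52.5 ± 10.3). HES4 (15.4 ± 15.1), HES6 (14.5 ± 3.00), HES2 (8.21 ± 3.04), HEY2 (2.78 ± 0.431) and DTX1 followed. Of neighbours in this order, only HES4 and HES6 had overlapping ranges. In gefitinib libraries the order became BHLHE40 (547 ± 67.6), HES1 (323 ± 27.1), CDCA7 (310.1 ± 9.52), NRARP (117 ± 24.8) and HES6 (76.2 ± 14.9). HEY1 (37.3 ± 3.79), HES4 (12.9 ± 1.00), HEY2 (8.49 ± 2.84), HES2 (4.14 ± 0.431) and DTX1 came after these. There the ranges of HES1 and CDCA7 overlapped and no other neighbours did. HEY1 thus went from rank 4 to rank 6 and HES6 from rank 7 to rank 5.

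**Figure D4:**
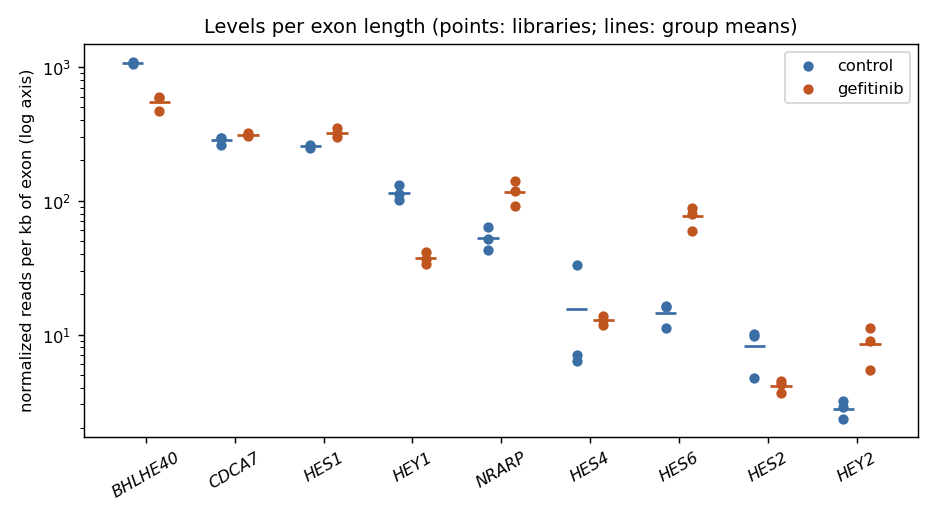
Normalized reads per kb of exon for 9 members on a log axis, with a point for each control or gefitinib library and a line at each group mean, in the order of the control means. BHLHE40 is highest in both groups, and HES6 lies below HEY1 in control and above it in gefitinib libraries, going from 14.5 to 76.2 per kb while HEY1 goes from 115 to 37.3.

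The make-up of the HES and HEY transcripts shifted, while their summed level overlapped between groups only through control replicate 3. That library held 32.8 per kb of HES4, against 6.31 and 6.99 in control replicates 1 and 2. Summed over the 6 HES and HEY members, the level per kb was 415, 384 and 431 in control and 425, 503 and 458 in gefitinib libraries. HES1 made up 62.6%, 64.3% and 59.3% of it in control and 69.9%, 69.8% and 70.0% in gefitinib libraries. The share of HEY1 went from 31.5%, 26.3% and 26.3% to 9.73%, 7.34% and 7.38%. The share of HES6 went from 2.67%, 4.28% and 3.73% to 14.1%, 17.6% and 17.5%. Per kb, HEY1 was thus the second transcript of the family in every control library and HES6 in every gefitinib library. Before division by exon length, HEY1 was ahead of HES6 in gefitinib replicate 1, at 134 against 122 normalized reads, and behind it in replicates 2 and 3.

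HEY1 and HES6, the members with the largest fall and rise, were set against HES1, so their ratios describe the changes given above in another form. The log2 ratio of HEY1 to HES1, on values with 1 added, was -0.34, -0.64 and -0.52 in control and -2.19, -2.59 and -2.59 in gefitinib libraries. The difference was -1.95, with an exact permutation p of 0.1 (2-sided), the smallest that 3 against 3 libraries allow. The log2 ratio of HES6 to HES1 was -4.51, -3.89 and -3.97 in control and -2.32, -2.00 and -2.01 in gefitinib libraries. Its difference was 2.01, with the same exact permutation p of 0.1. Neither p could pass the threshold in this design. For both ratios the values of the groups did not overlap.

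**Figure D5:**
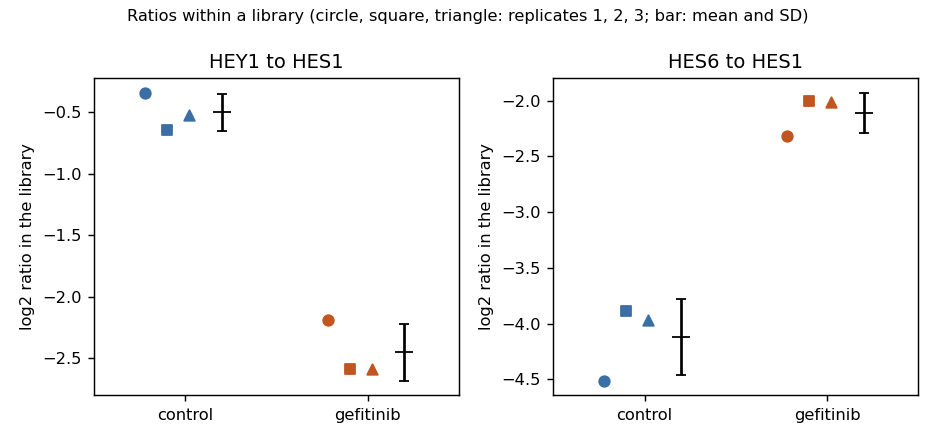
Log2 ratio of HEY1 to HES1 and of HES6 to HES1 in each library, with the mean and SD of 3 libraries as a bar. The first ratio lies near -0.50 in control and -2.45 in gefitinib libraries, and the second near -4.12 and -2.11.

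Genes with the most similar profile were taken as those with the smallest root mean square distance between log2 values over the 6 libraries, each gene centred on its mean, among 12068 genes. For HES1 these were POLB, HSBP1L1 and ATXN2, at distances from 0.0402 to 0.0458. For HES6 they were RNASEH2C, SNAI1 and POFUT1, from 0.125 to 0.135. POFUT1, whose enzyme adds the O-fucose that Notch receptors need, went from 596 to 3253 normalized reads on average. SNAI1, a repressor gene of epithelial-mesenchymal transition, went from 12.2 to 71.7. HEY1 was nearest to PAWR, MGAT2 and TMEM156 (0.0711 to 0.0770), and HEY2 to HIST1H2BC, LATS2 and CDKN2D (0.152 to 0.185). NRARP was nearest to QDPR, MRPL40 and CIZ1 (0.0268 to 0.0587), and BHLHE40 to RGP1, DUS2 and TATDN2 (0.0221 to 0.0593). With 2 groups, such distances reflect mainly the group difference.

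The upstream pathway also moved in both directions. Of 38 receptor, ligand, protease, modifier and nuclear complex genes, 16 rose, 9 fell and 13 did not pass the limma test, where 28.3% of all tested genes rose and 22.8% fell. The median log2 difference was 0.15 against 0.10 over all genes. NOTCH1 had normalized read counts of 193, 351 and 459 in control and 688, 799.8 and 976 in gefitinib libraries (limma adjusted p = 0.00289). The ligand gene JAG1 went from 694 ± 62.3 to 1097 ± 121 (SD, n = 3; limma adjusted p = 0.00116). DLL4, another ligand gene, had 3 control and 267 gefitinib reads, 74.6 times as many after correction for depth (exact 95% interval of the counts, 25.3 to 364).

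Genes of the nuclear step moved both ways. RBPJ fell from 2193 ± 159 to 1805 ± 59.3 normalized reads (limma adjusted p = 0.0194; SD, n = 3), as did the coactivator gene MAML2 from 3317 ± 43.0 to 1009.8 ± 118 (limma adjusted p = 2e-06). Its sister gene MAML1, named after its value was seen, rose from 1225 ± 120.2 to 2317 ± 66.6 (limma adjusted p = 4.33e-05). KDM5A, a histone demethylase gene that acts with RBPJ in repression, rose from 2199 ± 84.4 to 3849.5 ± 121 (limma adjusted p = 2.39e-05).

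Among relatives and partners of the HES and HEY proteins, 14 of 19 listed genes were in the table. Of these 4 rose, 3 fell and 7 missed the threshold, near the 51.1% of all tested genes called in either direction. The median log2 difference was 0.28 against 0.10 over all genes. BHLHE41, the closest relative of BHLHE40, fell from 1613 ± 81.4 to 411 ± 46.3 normalized reads (limma adjusted p = 2e-06; SD, n = 3), in the same direction as BHLHE40. ID1 and ID3, which encode inhibitors that bind bHLH proteins, moved apart. ID1 rose from 43.0 ± 5.50 to 129.8 ± 17.1 (limma adjusted p = 0.000314) and ID3 fell from 677 ± 193 to 127 ± 20.7 (limma adjusted p = 3.47e-05). The corepressor gene TLE1 rose from 1282 ± 64.3 to 1579 ± 84.9 (limma adjusted p = 0.0155), and TCF4, a bHLH partner, fell from 754 ± 63.7 to 484 ± 19.2 (limma adjusted p = 0.000881). HES7, the remaining HES gene in the table and named after its value was seen, had 7 control and 30 gefitinib reads. HES3, HES5, HEYL, HELT and TLE4 were not analysed here.

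Of 12 other genes described as Notch targets, 4 rose, 7 fell and 1 did not pass, beside 28.3% of all tested genes higher and 22.8% lower. The median log2 difference was -0.81 against 0.10 over all genes. Beside MYC, the calls with the smallest p were SOX9, a progenitor factor gene, from 2754 ± 162 to 990.3 ± 50.2 normalized reads (SD, n = 3), GATA3 from 469 ± 42.7 to 113 ± 1.49, and the cyclin gene CCND1 from 4478 ± 156 to 2098 ± 171. Many of these genes answer to MAP kinase signalling too, and whether Notch acts on any of them or on the members in these cells was not tested.

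Libraries held from 13674237 to 38581498 reads in coding genes. As a check of the treatment, the ERK-dependent genes DUSP6 and PHLDA1 fell, from 3719 ± 246 to 1962 ± 87.8 and from 4177 ± 492 to 1029 ± 139 normalized reads (SD, n = 3), while SPRY4 and ETV5 of the same list rose and ETV4 did not pass. EGFR fell from 31425 ± 3059 to 15759 ± 247. Control replicate 1 lay apart from the other control libraries on principal component 2, at 38.1 against -12.6 and -28.8, and gefitinib replicate 1 lay apart from the other gefitinib libraries there, at 23.3 against -8.86 and -11.1. Lung epithelial markers were abundant: 9 of 10 were in the table, with summed normalized read counts from 81467 to 116768 in control and from 67997 to 70878 in gefitinib libraries. The keratin gene KRT8 alone had 22399 ± 4977 and 15577 ± 138. NAPSA and SFTPB, which mark alveolar cells, were low, at 21.2 ± 4.19 and 7.82 ± 4.27 in control libraries. Blood markers summed to between 23.4 and 40.7 and fibroblast markers to between 32.4 and 71.4 over all libraries.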

How the data were processed

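Total RNA of 3 control and 3 gefitinib-treated PC9ER samples was sequenced. Per the submitters' processing notes, reads were handled with STAR and HTSeq on GRCh38; versions, annotation and strand setting are not given in the sources used here. The deposited table is a signal of scaled counts: the authors brought the reads of each library to the same sum, 18085800. Values above 0 are whole multiples of 1 step per library (100% within 0.01 read), which gave the reads. Another deposited table has 6 count columns that match no label; only its gene IDs, symbols and positions were used.

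After removal of 147 of the 15376 rows, empty in all libraries, 15229 genes were tested in R 4.3.3 by limma-trend 3.58.1, fitted to log2(value + 1), which understates changes of low genes. Differences are gefitinib minus control. On the recovered reads edgeR 4.0.16 called 7459 of 12167 genes (61.3%), and limma 7785 of 15229 (51.1%). DESeq2 1.42.0 was a further alternative. The fit was tested on simulated data. No 2 replicates agreed within sampling noise (chi-square per degree of freedom from 5.20 to 61.2). Members and gene lists were chosen with earlier results of these data known. Named list genes are the 4 with the smallest p of each list, the fixed pathway genes, and others marked as such in the text. Gene positions are from GENCODE release 29 and promoters from RefSeq (GRCh38.p14). Intervals and floors on reads cover counting error only. A gene of the fixed lists is not reported here.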

Additional observations from a re-analysis of the deposited data

How the results depend on the processing

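The alternatives were edgeR, DESeq2, TMM factors, size factors of DESeq2, pseudocounts 0.5 and 5, filters at a mean of 10 or at 1 CPM in 3 libraries, a replicate block, and each library left out. The calls of HES6, HEY1, HEY2, NRARP and BHLHE40 held under all that tested them, and CDCA7 was called by none. HES1 lost its call under 7, and HES2 gained one under 8. The uncalled log2 difference of HES4 turned to -0.26 with edgeR and -0.29 with DESeq2, and ran from -0.25 to 0.87 with a library left out. DESeq2 called 2 relatives and partners higher in place of 4. TMM factors moved the median of all genes from 0.10 to 0.05. No label states that same-numbered control and gefitinib libraries belong together. Correlations of their deviations were 0.127, 0.0444 and 0.0947, against -0.128 to 0.0862 for pairs with different numbers. Whether they share a batch was not tested. With the replicate block 4438 genes were higher and 3552 lower, against 4312 and 3473, and HES2 was called (log2 difference -0.88, limma adjusted p = 0.0484); no other member's call changed with the block. HES2, HES4 and HEY2 had only 7 to 55 reads per library, and HES2 and HES4 in control and HEY2 in gefitinib libraries also varied by more than counting error.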
